A study of Mus musculus with 6 samples.

Results

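The genes described here encode the TGF-beta, BMP and activin pathway in mouse Leydig cells, from the ligands to the nuclear targets. The members were chosen by gene name among the rows of the deposited table, which lists only genes that passed the authors' comparison of the stages. The choice was made with earlier results of these data known. A row was kept when its gene symbol began with a name from a fixed set. The set named ligands (Bmp, Gdf, Tgfb, Inha, Inhb, Amh, Nodal, Lefty) and receptors (Bmpr, Acvr, Tgfbr, Amhr2, Eng). It also named SMADs, secreted antagonists, latency proteins, nuclear corepressors and Id factors. This gave 57 genes of 10580 in the deposited table. RNA had been sequenced from 3 libraries of fetal Leydig cells (FLCs) of embryonic day 18.5 and 3 libraries of adult Leydig cells (ALCs) of mice aged 100 days. All cells, fetal and adult, were male and came from testes of mice with an Nr5a1-GFP transgene (genotype Nr5a1 Tg), which both groups share. The fetal testes came from outbred CD-1 females mated with heterozygous transgenic males, and the adult testes from heterozygous transgenic males. Live single cells with strong GFP were sorted, and for the fetal group cells of separate experiments were pooled to reach the RNA needed for a library. Nr5a1 drives GFP in Sertoli cells as well as in Leydig cells, and the strength of the signal was used to tell them apart.

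One value per gene was used, the mean over all 6 libraries of read counts divided by the size factor of the library, here termed the level. It pools both stages, so the levels below do not separate FLCs from ALCs. No value per library was used, so no SD, no n per group and no test accompanies a level, and the depth per library is unknown. Counts grow with transcript length, and levels of single genes were therefore set against each other after division by the number of bases covered by any exon of the gene in GENCODE vM21 (GRCm38), as a level per kilobase. Undivided counts, and ranks and shares in them, are also given and are not corrected for length. The level describes RNA, and in sorted bulk cells fewer cells of a type and less RNA per cell cannot be told apart.

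Ligands of this family are secreted dimers that bring together type I and type II receptor kinases at the cell surface. The activated type I receptor phosphorylates SMAD proteins, of which SMAD2 and SMAD3 carry TGF-beta and activin signals and SMAD1, SMAD5 and SMAD9 carry BMP and AMH signals to the nucleus together with SMAD4. In the testis the family is known for inhibin and activin, which act on follicle-stimulating hormone release and on local growth, and for anti-Müllerian hormone, the Sertoli cell product that removes the Müllerian ducts of the male fetus.

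The sequences shown first are those of the promoters that hold a GC-rich element bound by SMAD1 and SMAD5 in known BMP target genes, GGCGCC, and each is given because it belongs to a member described below; the choice among the windows with the element was made after the levels had been seen. All are taken from RefSeq promoter windows on GRCm38.p6, which run from 250 bases before a gene's start to 50 bases after it, and are written 5′ to 3′ on the strand of the gene with the element in capitals. They lie at chr14:34502727-34502756 (minus strand, Bmpr1a, a BMP type I receptor), chr4:47352977-47353006 (plus strand, Tgfbr1, the TGF-beta type I receptor), chr4:155222738-155222767 (minus strand, Ski, a nuclear corepressor), chr11:106920932-106920961 and chr11:106920845-106920874 (minus strand, Smurf2, a ubiquitin ligase), chr16:20732912-20732941 (plus strand, Chrd, a BMP antagonist), chr2:113758709-113758738 (minus strand, Grem1, another BMP antagonist) and chr13:48260956-48260985 (plus strand, Id4, an inhibitor of helix-loop-helix factors). None of these stretches overlaps an annotated exon of GENCODE vM21.
Bmpr1a: tgcgcgcgcgccGGCGCCtcttgctcgccc
Tgfbr1: ggctggagtaaaGGCGCCcagcggtgaggg
Ski: gcgcgtggatgtGGCGCCgggcccgggcgg
Smurf2, distal: tgccatcgagccGGCGCCgccgggcggtgt
Smurf2, proximal: aggccttcctctGGCGCCccaggcgcagga
Chrd: cgggccagagccGGCGCCtagggcactaaa
Grem1: cgcggcggcgacGGCGCCtgaccaatggag
Id4: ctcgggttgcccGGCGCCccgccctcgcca

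As a group, the 57 genes were expressed at ordinary levels for this table, with a single gene far above the rest. Their median level was 495 normalized counts, against 679 for all 10580 listed genes, and 27 of them (47.4%) lay above that table median. Per kilobase the median was 138 for the members and 147 for all listed genes, and again 27 members lay above it. A level above 1000 was found for 23 members (40.4%, against 41.3% of all listed genes), and a level below 10 for 3 members (5.26%, against 4.61%). The exception was Inha, which ranked 19 in the table per kilobase, while the next member on that scale, Amhr2, ranked 589. In undivided counts the level of Inha was 40708, rank 44. Together the 57 genes held 0.446% of the summed level of all listed genes, of which Inha alone made up 0.183%.

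**Figure D1:**
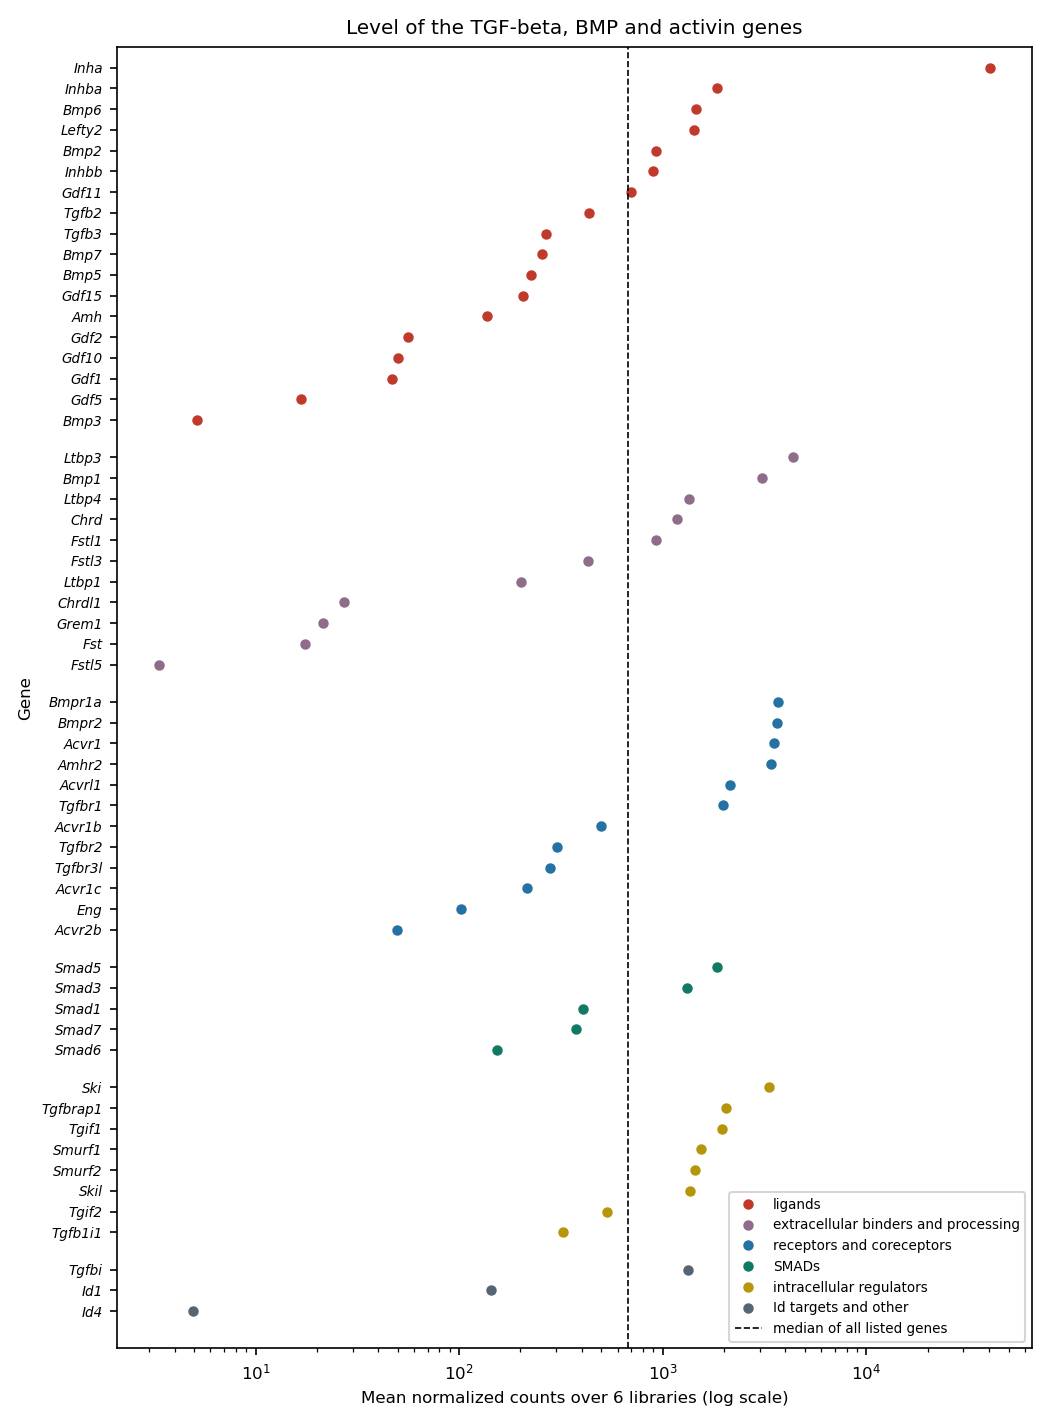
Level of each of the 57 genes, as mean normalized counts over 6 libraries of both stages on a log axis, with 1 point per gene, grouped and coloured by role; the dashed line marks the median of all listed genes, 679. Inha at 40708 stands apart from the other members, which lie between 3.35 (Fstl5) and 4361 (Ltbp3).

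Among the 18 ligand genes, the inhibin alpha chain dominated. Inha encodes the chain that joins a beta chain to make inhibin, a hormone that opposes activin. The gene lies on chromosome 1 from 75507077 to 75510366 of GRCm38, and its exons shared no base with another annotated gene. Its level per kilobase was 27598, rank 19 of the listed genes on that scale. The beta chains, which pair with each other to make activin or with the alpha chain to make inhibin, were much lower. Inhba (chromosome 13, 16011851 to 16031621) had a level of 1847 normalized counts and 289 per kilobase. Inhbb (chromosome 1, 119415465 to 119422248) had 892 normalized counts and 209.7 per kilobase. Per kilobase, the level of Inha was 95.5 times that of Inhba, 132 times that of Inhbb, and 55.3 times that of both beta chains together. In undivided counts Inha was 22.0 times Inhba and 45.6 times Inhbb, so the size of these ratios depends on the exonic lengths used. Between the beta chains, Inhba stood 1.38 times above Inhbb per kilobase. These ratios have no error, since each rests on a pooled mean per gene.

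The highest ligand per kilobase after Inha was Lefty2, a secreted inhibitor of Nodal signalling, with 548 per kilobase and a level of 1430 normalized counts. Bmp6 and Bmp2 followed among the BMPs, with 374 and 262 per kilobase and levels of 1457 and 930 normalized counts. Bmp2 activates SMAD1 and SMAD5 through Bmpr1a, and Bmp6 mainly through Acvr1. Of the exonic bases of Bmp6, 5.74% overlap Txndc5 on the opposite strand, whose level was 15568 normalized counts, so the value of Bmp6 is uncertain if strand was not used in counting. Gdf11, a relative of myostatin that signals through activin receptors, had 171 per kilobase, above the table median of 147. Of the 18 ligands, 7 lay above that median, and Gdf11 was the lowest of these 7. Gdf15, a stress-induced ligand, had 111 per kilobase. Tgfb3 had 78.6 and Tgfb2 75.1 per kilobase, and Bmp7 had 63.8 and Bmp5 55.7, all below the table median. Tgfb1 is not analysed here.

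The other ligands lay below the table median on both scales. Amh, the Müllerian inhibitor and a Sertoli cell marker, had a level of 137 normalized counts and 82.2 per kilobase. Gdf2, the ligand BMP9 of endothelial receptors, had 18.8 per kilobase, Gdf10 9.58 and Gdf5 7.20. Bmp3, a BMP that antagonizes others, was the lowest ligand, with a level of 5.17 normalized counts and 0.699 per kilobase. Gdf1 had a level of 47.1 normalized counts, but 100% of its exonic bases also belong to Cers1, a ceramide synthase gene on the same strand with a level of 99.4, so reads of the shared stretch cannot be assigned to one of them and the value of Gdf1 is uncertain. Gdf5 shared 40.3% of its exonic bases with a gene on the opposite strand, and Bmp5 46.7%. The library kit keeps the strand, whereas the strand setting of the authors' counting is not given in the sources used here.

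Outside the cell, 6 of 11 genes lay above the table median per kilobase, namely Ltbp3, Bmp1, Ltbp4, Fstl1, Chrd and Fstl3. Ltbp3, which binds latent TGF-beta and anchors it in the matrix, had a level of 4361 normalized counts and 481 per kilobase, the highest of the 11 genes in this group. Ltbp4 had 208 per kilobase, and Ltbp1 18.8. Bmp1 is not a ligand but a metalloprotease that trims procollagens and cleaves chordin, and it had a level of 3070 normalized counts and 346 per kilobase. Its substrate Chrd, the antagonist chordin, had 188 per kilobase and a level of 1175. Fstl1, a secreted glycoprotein, had 189 per kilobase.

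Follistatin was scarce. Fst, which binds activin almost irreversibly, had a level of 17.6 normalized counts and 3.83 per kilobase. Fstl3, a related activin binder, had 429 normalized counts and 175 per kilobase, 45.8 times Fst on the per kilobase scale, although 47.3% of the Fstl3 exonic bases are shared with Prss57 on the opposite strand (level 266). The BMP antagonists Grem1 and Chrdl1 had 5.15 and 4.03 per kilobase. Fstl5 was the lowest of all 57 members on both scales, with a level of 3.35 normalized counts and 0.361 per kilobase.

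**Figure D2:**
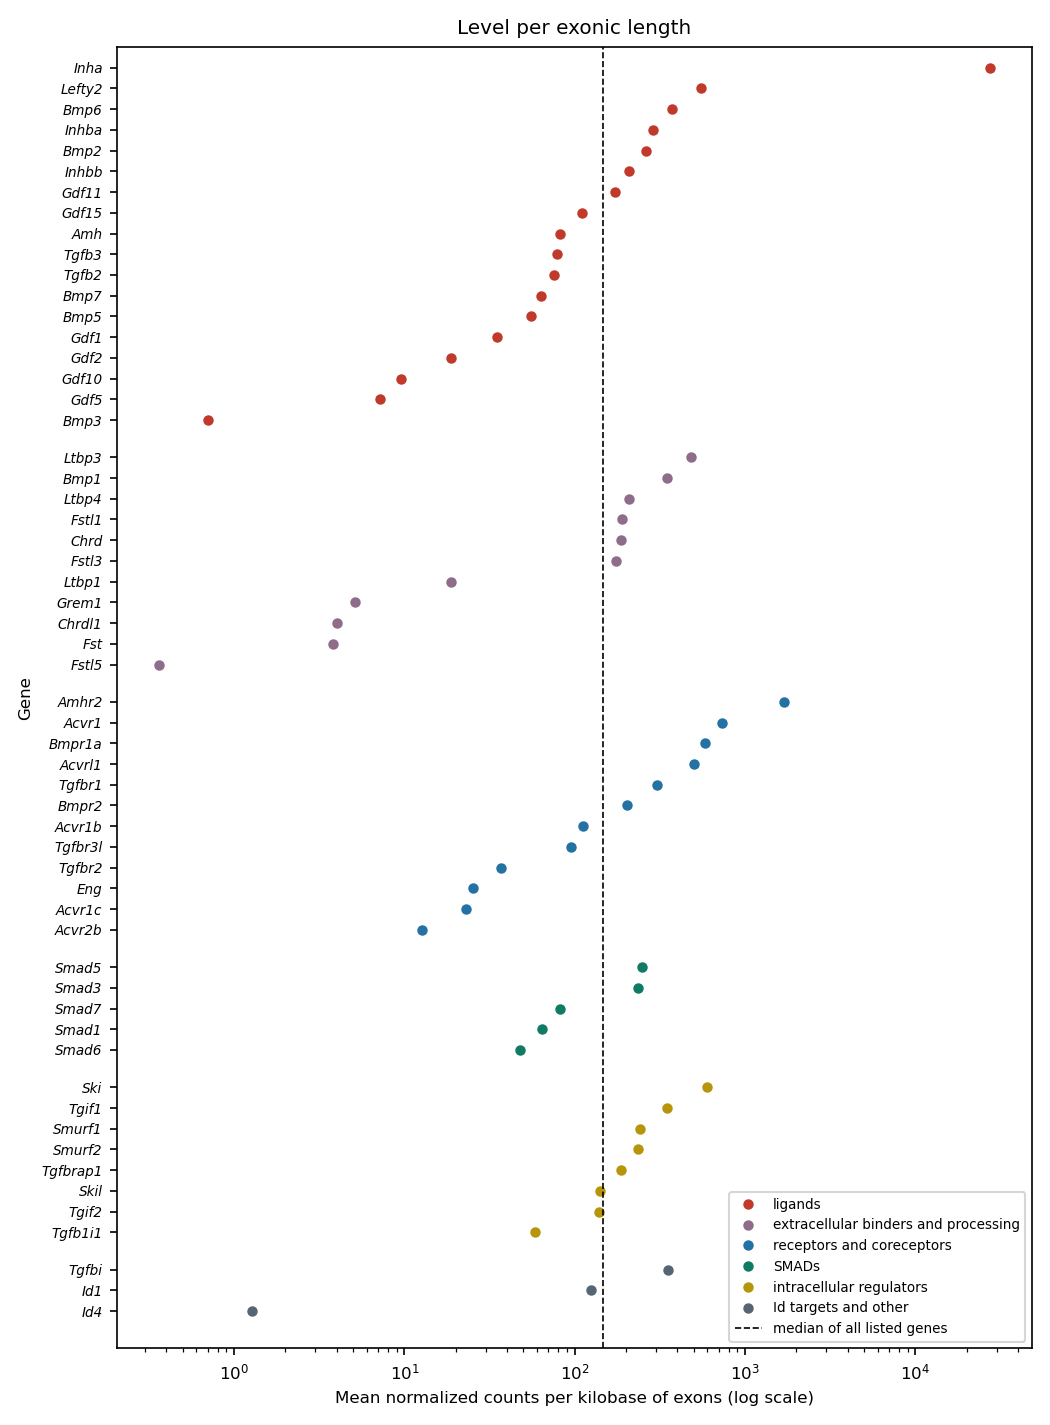
Level of the same genes divided by exonic length, as mean normalized counts per kilobase of exons on a log axis, 1 point per gene, grouped by role; the dashed line marks the median of listed genes with a length, 147. Inha (27598) and Amhr2 (1699) are the highest members, and Bmpr2, whose exons cover 17983 bases, ranks 4 among the members in counts and lies at 202 per kilobase.

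The receptors included the second highest member per kilobase, Amhr2. This type II receptor binds AMH alone, lies on chromosome 15 from 102445367 to 102454633, and had a level of 3407 normalized counts and 1699 per kilobase. Its level per kilobase was 20.7 times that of its ligand gene Amh in the same libraries. The 250 bases before its start (chr15:102445117-102445366, plus strand, outside annotated exons) are shown because they hold the letters AAGGTCA, a half-site of the type that NR5A1 binds, in capitals at position -231 from the start.
Amhr2: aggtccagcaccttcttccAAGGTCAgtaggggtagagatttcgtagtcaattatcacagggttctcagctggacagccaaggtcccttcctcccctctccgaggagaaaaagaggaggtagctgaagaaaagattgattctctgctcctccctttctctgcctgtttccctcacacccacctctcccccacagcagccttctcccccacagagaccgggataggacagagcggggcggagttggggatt
Nr5a1 is the gene whose transgene was used for the sort, and this motif was added after the levels had been seen. It occurred in 2 of the 57 promoter windows of the members (3.51%), those of Amhr2 and Tgif1, and in 4.72% of all windows. A match of letters is a description and not a binding site.

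The BMP type I receptors were the next highest. Acvr1 (ALK2) had a level of 3527 normalized counts and 730 per kilobase, and Bmpr1a (ALK3) 3679 and 579. Both of them can serve AMH as well as BMPs. Acvrl1 (ALK1), best known from endothelium, had 499 per kilobase, whereas its endothelial coreceptor Eng had 25.3, a ratio of 19.7. Tgfbr1 (ALK5), the type I receptor for TGF-beta, had 303 per kilobase. Acvr1b (ALK4), the main type I receptor for activin, had 112 and Acvr1c (ALK7) 23.1, both below the table median of 147.

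The type II receptors were unequal. Bmpr2 had a level of 3634 normalized counts and 202 per kilobase, the activin receptor Acvr2b 49.7 and 12.7, and Tgfbr2 302 and 36.8. Per kilobase, Bmpr2 stood 16.0 times above Acvr2b, and Tgfbr1 8.23 times above its partner Tgfbr2. Tgfbr3l, a relative of the coreceptor betaglycan, had 95.5 per kilobase, with 52.2% of its exonic bases shared with another annotated gene on the same strand. Of the 12 receptor and coreceptor genes, 6 lay above the table median per kilobase, and these 6 were Amhr2, Acvr1, Bmpr1a, Acvrl1, Tgfbr1 and Bmpr2. Bmpr1b, Acvr2a and Tgfbr3 are not analysed here.

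Of the SMAD genes, values were used for 5. Smad5, which carries BMP and AMH signals, had the highest level per kilobase, 248, and a level of 1844 normalized counts. Smad3, which carries TGF-beta and activin signals, came next with 236 per kilobase and 1309 normalized counts. Smad1, with the same role as Smad5, had 64.5 per kilobase, so that Smad5 stood 3.85 times above it. The inhibitory SMADs, which block the receptors and are themselves induced by the pathway, were lower than Smad5 and Smad3, with 82.5 per kilobase for Smad7 and 47.8 for Smad6. Smad2, Smad4 and Smad9 are not analysed here.

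Of the intracellular regulators, 5 of 8 lay above the table median per kilobase. Ski, a corepressor that binds SMAD2, SMAD3 and SMAD4, had a level of 3316 normalized counts and 596 per kilobase, rank 4 among the members. Its relative Skil had 141 per kilobase, less by a factor of 4.22. The homeodomain corepressor Tgif1 had 349 per kilobase and Tgif2 138, a ratio of 2.52, although 56.7% of the exonic bases of Tgif2 are shared with a gene on the opposite strand. The ubiquitin ligases Smurf1 and Smurf2, which mark SMADs and receptors for breakdown, were nearly level, with 243 and 234 per kilobase. Tgfbrap1, an endosomal protein named for its binding to TGF-beta receptors, had 187 per kilobase. Tgfb1i1, the focal adhesion protein HIC-5, was the lowest of this group with 58.2.

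Among the targets, the Id genes, which are induced by BMP signals in many cells and hold back helix-loop-helix factors, had values for 2 members. Id1 had 124 per kilobase, near the table median of 147 on that scale. In undivided counts its level was 144, below the table median of 679. Id4 had a level of 4.91 normalized counts and 1.27 per kilobase. Id2 and Id3 are not analysed here. Tgfbi, a matrix protein named as a TGF-beta-induced gene, had 352 per kilobase and a level of 1329 normalized counts.

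Summed per kilobase, the ligand genes held 76.8% of the level of the 57 members, of which Inha alone accounted for 70.7% of the members' sum. The receptors held 11.1%, the intracellular regulators 4.99%, the extracellular binders and processing genes 4.15%, the SMADs 1.74%, and the Id genes with Tgfbi 1.22%. Without Inha, the ligands fell to 20.9% and the receptors led with 37.8%. In normalized counts, not divided by length, the ligands held 50.1% and the receptors 19.97%.

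**Figure D3:**
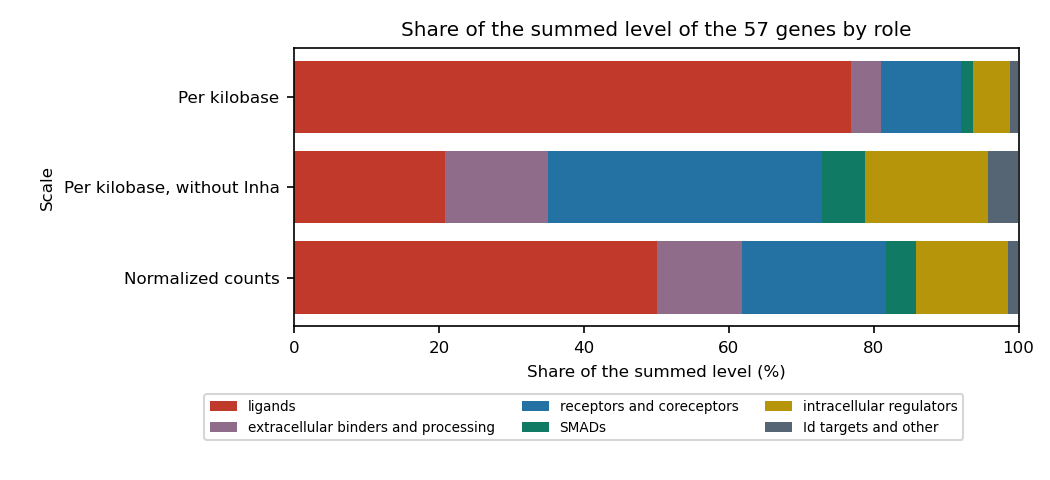
Share of the summed level of the 57 genes held by each role, in percent, as stacked bars for 3 scales: per kilobase of exons, per kilobase without Inha, and normalized counts. Ligands take 76.8% per kilobase and 20.9% once Inha is left out, when receptors take 37.8%.

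Other genes of the pathway, outside the naming rule, were taken from a list of 39, of which 27 had a value. Their median level was 1742 normalized counts, and 15 of the 27 lay above the table median of 679. Neo1, a receptor for the BMP coreceptors of the RGM family, had 667 per kilobase, and Tab2, an adaptor of the kinase TAK1, 731. Map3k7, the gene of TAK1 itself, had 349 per kilobase. Of the enzymes that cut ligand precursors, Pcsk6 had 520 and Pcsk5 307 per kilobase. Fbn1, the fibrillin to which latent complexes bind, had 358 per kilobase. The target Ctgf had 197, whereas the BMP targets Msx2, Msx1, Hey1 and Atoh8 had 15.1, 0.836, 37.7 and 33.1 per kilobase.

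The identity of the cells was read from markers. All 6 Leydig cell markers (Cyp11a1, Star, Insl3, Cyp17a1, Hsd3b1 and Nr5a1) had levels per kilobase between 21275 (Star) and 414861 (Insl3). Cells were sorted by strong GFP of the Nr5a1 transgene, so the level of Nr5a1 is not separate evidence of identity. The markers of other testis cells reported here were lower on that scale. Dhh of Sertoli cells had 20.2 per kilobase, Tcf21 of interstitial progenitors 92.0, Ddx4 of germ cells 61.1 and Esam of endothelial cells 35.7. Of the immune cell markers, Csf1r had 170.04, Emr1 54.8 and Cxcl2 5.61 per kilobase. Amh belongs to the Sertoli panel as well as to the members, and its 82.2 per kilobase lay in the range of these markers. Eng and Gdf2, whose products act on endothelium, had 25.3 and 18.8 per kilobase beside the 35.7 of Esam. Whether RNA of other cells contributed to the levels of Amh, Eng or Gdf2 was not tested.

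**Figure D4:**
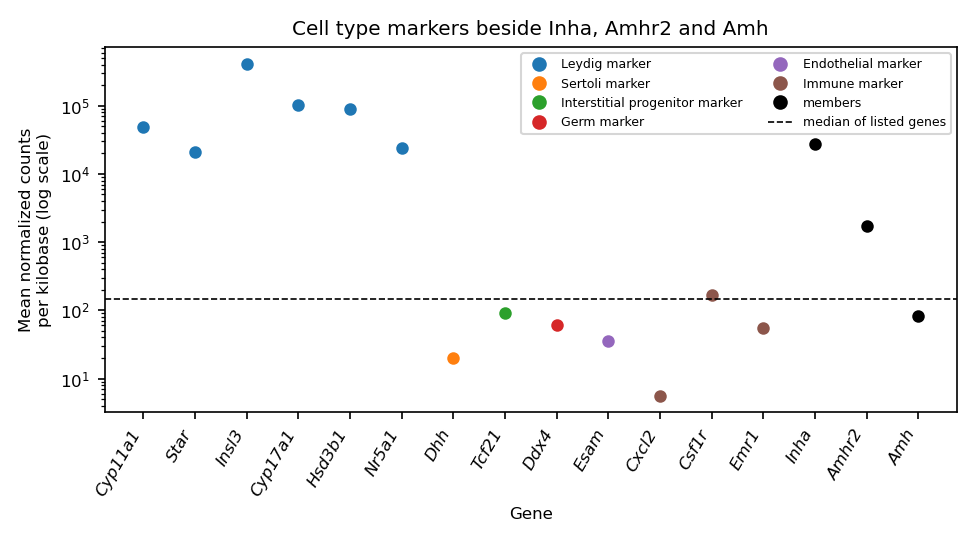
Level per kilobase of exons, on a log axis, of the cell type markers reported here and of 3 members (Inha, Amhr2 and Amh, black), 1 point per gene; the dashed line marks the median of listed genes, 147. Inha at 27598 lies within the range of the Leydig cell markers, and Amh at 82.2 lies among the markers of other cells.

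The promoters of the members were then searched for short elements. RefSeq windows were matched by symbol for 42 of the 57 genes, some with several starts, which gave 57 windows; windows of the same gene can overlap. The other 15 genes, among them Smad7 and Id1, had no window and were not searched for any element. The windows of the members were GC-rich, with a median of 64.3% G and C against 52.7% in all 32851 windows. The GC-rich BMP element GGCGCC, a palindrome, was present in 17 of 57 member windows (29.8%, exact 95% binomial interval 18.4 to 43.4), in 19.4% of the windows of all listed genes and in 11.9% of all windows. Windows with this element had a mean G and C content of 66.2%, and windows without it 52.1%. Among windows of at least 60% G and C, 16 of 36 member windows held it (44.4%), against 31.7% of such windows of listed genes and 30.9% of all such windows, a division by G and C content that was chosen after the shares had been seen. The share of listed genes lies within the interval of the members. That interval treats windows as independent, although the 17 windows belong to 15 genes and overlapping windows can hold the same site.

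The other SMAD elements were less distinct. The letters CAGAC, on either strand, occurred in 30 of 57 member windows (52.6%, interval 39.0 to 66.0), in 48.5% of the windows of listed genes and in 49.6% of all windows, so no difference was detectable with 57 windows. Intervals cover counting error only and treat windows as independent. The SMAD palindrome GTCTAGAC was found in a single member window, that of Smad6, an inhibitory SMAD and itself a target of the pathway. There it began at position -4 and spanned the start, and 0.213% of all windows held the same letters. These 3 motifs do not contain one another. A window without an element says only that the letters are not in it. Nothing can be said of members without a window, such as Smad7 and Id1.

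**Figure D5:**
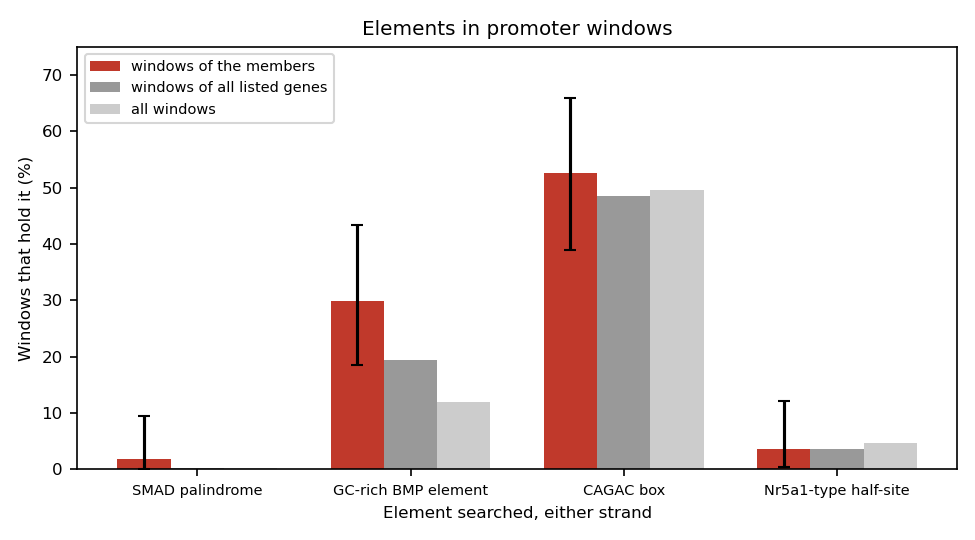
Percent of promoter windows that hold each of 4 elements on either strand, as bars for the 57 windows of the members (error bars are exact 95% binomial intervals), the windows of all listed genes and all 32851 windows. The GC-rich BMP element reaches 29.8% in the members, 19.4% in listed genes and 11.9% in all windows, and the other elements differ less.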

How the data were processed

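The authors demultiplexed reads with Casava (version 1.8.2 per the labels), mapped them with GemTools to GRCm38, counted them per GENCODE gene by their own pipeline, dropped genes under 10 reads and compared the stages with DESeq2. The value used is the deposited signal, the authors' mean of size-factor-normalized counts across the 6 libraries. The other deposited columns hold the authors' own comparison (log2 fold change, its standard error, test statistic, p-value and adjusted p-value) and were not used; the table lists only genes that passed it, so medians over listed genes are not medians over all genes. Counts per library were not used, hence no test between stages was made. A sheet of library names holds no measurement.

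Listed genes were matched to GENCODE vM21 (GRCm38) by symbol (10223) or older symbol (299), and 58 had no match. Of 89 annotated protein-coding genes that fit the naming rule, 32 are not analysed here. Promoters were searched on both strands with Python 3.11.15, and intervals were computed with scipy 1.17.1; the code was tested on simulated data. Members and lists were chosen with earlier results of these data known, and the division into roles, the ratios given, the distance limit for neighbours and the NR5A1-type motif after the levels had been seen. Named were, for each role, the 3 highest members and the lowest, and all inhibin and activin chains, Amh, Amhr2, Fst and Id genes. For some of these only the level per kilobase is given, as for Tgfbrap1, Tgif1, Ltbp4, Smad1, Smad6 and Tgfb1i1. The planned alignment of proteins was not made, and some genes of the lists are not reported here. Pooled values carry no replicate error, and intervals of shares cover counting error only.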

Additional observations from a re-analysis of the deposited data

How the results depend on the processing

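No paired analysis was possible because no value per library was used. No library could be left out for the same reason. The median percentile of the members among listed genes was 44.2, and it was 48.8 per kilobase, 42.0 without the matrix, protease and loosely named members, 45.4 with a minimum level of 10, 44.8 without Amh and 55.9 without the 6 members that share over 10% of their exonic bases with another gene. The share of members above the table median was 47.4% on either scale, 44.7% without the loosely named members and 48.1% with the minimum. The ligands' share of the summed level depended on a single gene, being 76.8% per kilobase, 20.9% without Inha and 50.1% in normalized counts. For the GC-rich BMP element, the members exceeded all windows by 17.96 percentage points and the windows of listed genes by 10.5, and by 15.0 with bases before the start only. The SMAD palindrome turned from 1.54 points above all windows to -0.17 with bases before the start only, where no member window held it. Alternatives chosen after seeing the data gave 13.5 points within windows of at least 60% G and C (12.8 over listed genes) and 22.3 when counted per gene (12.6 over listed genes).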

Other observations

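Several members are neighbours in the genome, and 6 pairs lay within 300 kilobases of each other. The type I receptors Acvr1 and Acvr1c lie 30.7 kilobases apart on chromosome 2 on the same strand, with 730 and 23.1 normalized counts per kilobase of exons. Acvrl1 and Acvr1b lie 28.7 kilobases apart on chromosome 15, with 499 and 112. Smad3 and Smad6 lie 195 kilobases apart on chromosome 9, with 236 and 47.8. In contrast, Gdf10 and Gdf2, only 3055 bases apart on chromosome 14, were both low, with 9.58 and 18.8, and Tgfbi and Smad5, 63.4 kilobases apart on chromosome 13, had 352 and 248. Gdf1 and Gdf15, 298 kilobases apart on chromosome 8, had 34.9 and 111. The neighbourhoods were not tested against other genes.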
